A study of Mus musculus with 18 samples.

Results

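Primary mouse keratinocytes were compared with mouse embryonic stem cells (mESCs), the 2 cell types that served as reference identities for reprogramming in this study. The members were chosen by sample title alone: the 2 arrays of primary keratinocytes and the 2 arrays of the mESC line 1A2, which are 4 of the 18 arrays of the series. The keratinocytes came from pups at post-natal day 2. Their epidermis was peeled from the dermis after Dispase, and the attached cells were grown on collagen I for about a week in D-KSFM, a keratinocyte medium, with mEGF and cholera toxin. The 1A2 line descends from homozygous Nanog-GFP transgenic males, so it carries a green fluorescent reporter of Nanog, and it was grown in ES cell medium. It is 1 line, and neither cell type was sorted before RNA extraction. The other 14 arrays hold sorted mCherry+ fibroblast populations between day 2 and day 18 of low-KLF4 or high-KLF4 reprogramming. They also hold induced pluripotent stem cell (iPSC) clones. Their day 8 and iPSC pairs entered the comparison through the estimate of the spread, to which populations with a single array added nothing. For a gene with several probes, the one with the highest mean log2 signal over all 18 arrays stood for it in the lists. Each value is an RMA signal from a Mouse Gene 1.0 ST array, which reads whole transcripts with many probes per gene. Signals ran from 20.2 to 19539, and the median of an array lay between 139 and 162.

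The epidermis is a layered epithelium. Its basal cells divide on a basement membrane, hold keratins 5 and 14, and depend on the transcription factor p63, whereas their daughters switch to keratins 1 and 10, build desmosomes and finally cross-link a cornified envelope sealed by ceramides. Embryonic stem cells are also epithelial, since they adhere through E-cadherin. Their identity, however, rests on OCT4 (encoded by Pou5f1), SOX2 and NANOG together with a wider set of naive pluripotency factors. They also have a short G1 phase and open chromatin. Factors such as KLF4 and KLF5 act in both cell types.

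Of 21789 probes with a single gene symbol, 3969 had higher and 4442 had lower signals in keratinocytes than in mESCs at an adjusted p under 0.05 (limma, Benjamini-Hochberg over all these probes). These were 18.2% and 20.4% of the probes tested. With a minimum difference of 2-fold, 1951 probes (8.95%) were higher and 2137 (9.81%) were lower. Over all probes the median log2 difference, always given as keratinocytes minus mESCs, was 0.004. All differences below are such log2 differences ± SE from this fit with n = 2 arrays per cell type, and a gene is called higher or lower where its adjusted p was under 0.05. Centring every array on its median would move the median of all probes by 0.104, and the share of calls that were higher from 47.2% to 57%. The study's methods call the arrays of a cell type independent experiments, without saying whether cultures or pups differed. For keratinocytes, the sex-linked transcripts given below differed between the 2 arrays. The p-values measure the spread between arrays of the same group, pooled over keratinocytes, mESCs, day 8 populations and iPSC clones. The 2 arrays of a cell type were close to each other: the median SD of the log2 signal between them was 0.080 for keratinocytes and 0.086 for mESCs, and 68 and 22 probes lay 2-fold or more apart. The fit also used 2 pairs of day 8 arrays with a wider median SD of 0.129 and 0.151. It used 2 pairs of iPSC clones as well, with 0.069 and 0.060. The SE of a gene can therefore exceed the spread of its own keratinocyte and mESC arrays.

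**Figure D1:**
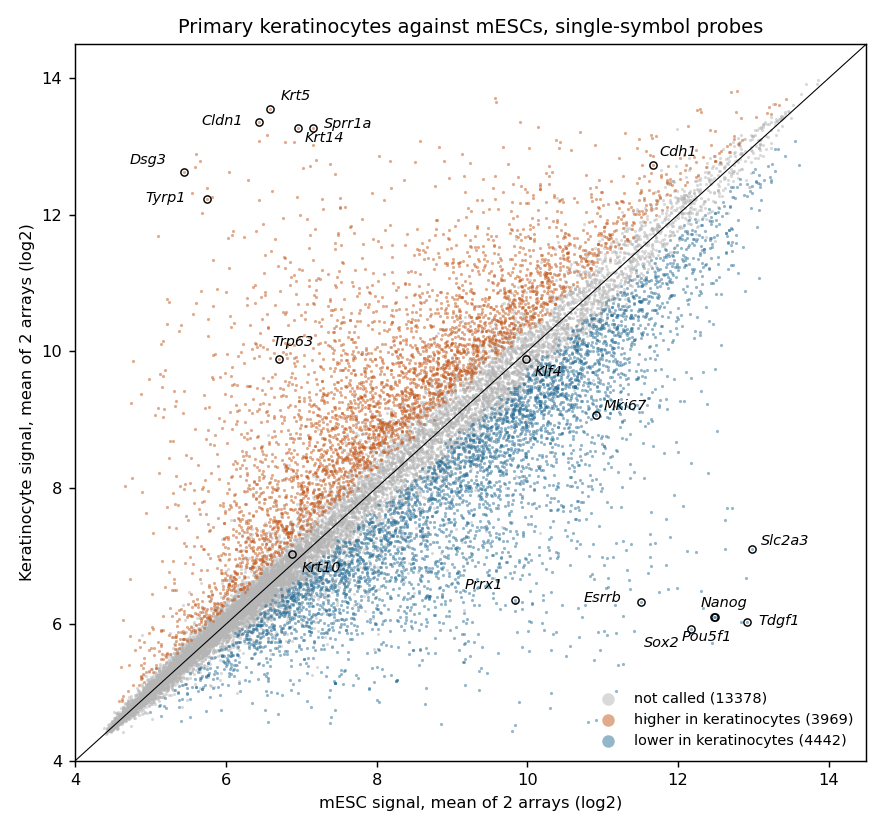
Mean log2 signal of each of the 21789 single-symbol probes on the 2 mESC arrays (horizontal axis) and the 2 keratinocyte arrays (vertical axis), with calls coloured and 18 genes ringed. Epidermal genes such as Krt5 and Dsg3 lie far above the line of equal signal, Nanog, Sox2 and Tdgf1 lie far below it, and Klf4 and Krt10 lie on it.

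Both labels were borne out by their markers. Pou5f1 gave 4947 and 6628 on the mESC arrays against 73.6 and 64.3 on the keratinocyte arrays, and Krt5 gave 12142 and 11903 on the keratinocyte arrays against 106 and 87.1 on the mESC arrays. The array pairs did not overlap for either gene. Because the deposited values carry no detection call, a signal of this low order cannot be read as absence of the transcript.

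The basal program separated the cell types by the highest list median. Of 17 basal genes measured, 14 were higher in keratinocytes and none was lower, and the median difference was 3.44. Krt5 and Krt14 encode the paired keratins of the basal layer. Krt14 signals were 10143 and 9677 in keratinocytes and 119 and 129 in mESCs, a difference of 6.32 ± 0.18 or 79.9-fold (adjusted p = 1.06e-07), and Krt5 differed by 6.96 ± 0.14. Trp63, which encodes p63, read 885 and 1018 against 107 and 102 and was 3.18 ± 0.13 higher. The hemidesmosome components Col17a1 (type XVII collagen) and Itgb4 (integrin β4) were 4.41 ± 0.13 and 4.12 ± 0.28 higher. Krt6a, Krt6b, Krt16 and Krt17 belong to the set that the epidermis switches on in wounds and in culture. Krt6a had the largest difference of all genes named by rule, at 8253 and 7001 against 53.3 and 44.6 (7.29 ± 0.20, 156-fold). Krt16 read 3011 and 3459.6 against 72.7 and 58.3 and Krt17 read 13577 and 13079 against 705 and 824, in neither case with overlap. Krt15, a keratin of quiescent basal and hair bulge cells, was only 0.44 ± 0.091 higher, with 127 and 115 against 89.9 and 88.5. Probes for close relatives such as Krt6a and Krt6b, or the Sprr2, Lce and Defb genes below, may share target sequence, so that their separate values are uncertain.

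**Figure D2:**
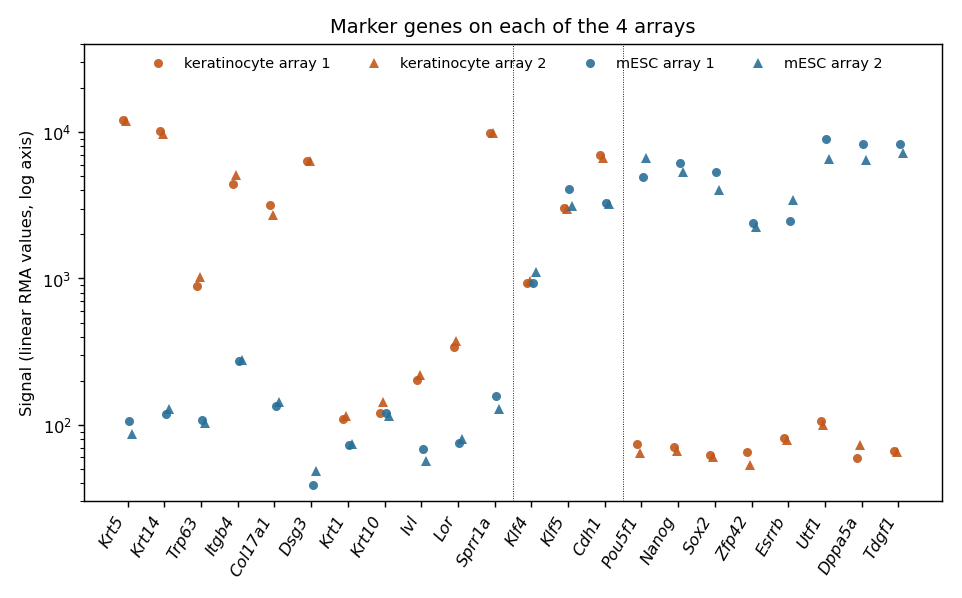
Signals of 22 marker genes on each of the 4 arrays, on a log axis, with circles for array 1 and triangles for array 2. Between the dotted lines are Klf4, Klf5 and Cdh1, which have high signals in both cell types, and Krt1 and Krt10 to the left have low signals on all 4 arrays.

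The suprabasal list split along its members. Of 17 spinous genes measured 12 were higher, with none lower and a median of 2.83. Dmkn (dermokine) read 6104 and 5543 against 78.4 and 78.9, Sbsn (suprabasin) read 5334 and 4544 against 127 and 119.8, and Krtdap read 1766 and 1223 against 81.5 and 53.8. These secreted products of the suprabasal layers were 6.21 ± 0.28, 5.32 ± 0.33 and 4.47 ± 0.22 higher. Lgals7 (galectin 7) and Fabp5, an epidermal fatty acid binding protein, were 5.61 ± 0.35 and 3.11 ± 0.24 higher. The keratins that define the spinous layer did not follow them. Krt1 gave 109 and 115 in keratinocytes and 72.6 and 74.2 in mESCs. Its arrays did not overlap, but the difference of 0.61 ± 0.49 was not called (95% confidence interval -0.51 to 1.73, adjusted p = 0.398). Krt10 gave 119.6 and 144 against 120.3 and 115, and its arrays overlapped (0.16 ± 0.10, interval -0.071 to 0.38, adjusted p = 0.275). Krt2 and Krt77 differed by 0.14 ± 0.12 and 0.066 ± 0.11, neither of them called. Krt80, by contrast, read 4895 and 4035 against 179 and 203. Among all 52 keratin genes measured, 17 were higher, 14 of them by 2-fold or more, and 2 were lower, namely Krt42 at 178 and 205 against 469.6 and 493 and Krt19. The median over the keratins was 0.19, and the hair shaft and inner root sheath keratins Krt25, Krt27, Krt28, Krt31, Krt34, Krt35, Krt71, Krt72, Krt73 and Krt86 were not called. Of other follicle keratins, Krt75 of the companion layer read 479.9 and 506 against 106 and 109 and was 2.19 ± 0.12 higher, and the hair keratin Krt39 was 0.33 ± 0.10 higher, a call lost without any one of the 4 arrays (adjusted p from 0.0822 to 0.111). Krt23, an acidic keratin, read 3384 and 1956 against 58.03 and 56.1 and was 5.49 ± 0.23 higher.

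Genes of the cornified envelope were broadly higher in keratinocytes. Of 49 such genes measured 40 were higher and none lower, with a median of 1.07. The epidermal differentiation complex holds many of them in 1 stretch of chromosome 3 (GRCm38, chr3:90511034-93564645, from S100a1 to S100a10). Along it 49 of 63 probes, or 77.8%, were higher, 33 of them by 2-fold or more, and none was lower. Sprr1a and Sprr1b, small proline-rich proteins that are cross-linked into the envelope, gave 9814 and 9923 in keratinocytes against 157 and 129 in mESCs for Sprr1a, and 6014 and 6598 against 61.4 and 70.8 for Sprr1b. Their differences were 6.12 ± 0.22 and 6.58 ± 0.15. Of 13 Sprr genes in the complex 12 were higher, with a median of 2.55. The 19 late cornified envelope (Lce) genes, which act in the last step of cornification, were less far apart, with 15 higher and a median of 0.52, and 5 of them passed 2-fold. Loricrin (Lor) and involucrin (Ivl), the envelope proteins most used as markers of the granular layer, read 342 and 376 against 74.8 and 79.8 for Lor and 204 and 221 against 68.9 and 56.3 for Ivl, differences of 2.21 ± 0.10 and 1.77 ± 0.12. Crct1 (9579 and 7246 against 139 and 146), S100a14 (4077 and 4267 against 50.97 and 52.02) and Pglyrp3, a peptidoglycan recognition protein (2046 and 2762 against 65.05 and 67.03), were the other genes of the complex that differed by more than 5 on the log2 scale. At its far end S100a10 and S100a11, which are widely used calcium-binding proteins, had high signals in both cell types, 12178 and 11733 against 4905 and 5171 for S100a10. Outside the complex, Asprv1, the protease that processes filaggrin, read 8971 and 8106 against 117 and 123 (6.15 ± 0.27), Scel (sciellin) 2690.3 and 1372 against 57.8 and 60.5, and Tgm1, the transglutaminase that forms the cross-links, 4167 and 4472 against 751 and 815 (2.46 ± 0.51). Tgm3 read 132 and 127 against 228 and 258 and was not called (adjusted p = 0.137). Filaggrin itself has no single-symbol probe and was not analysed here.

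**Figure D3:**
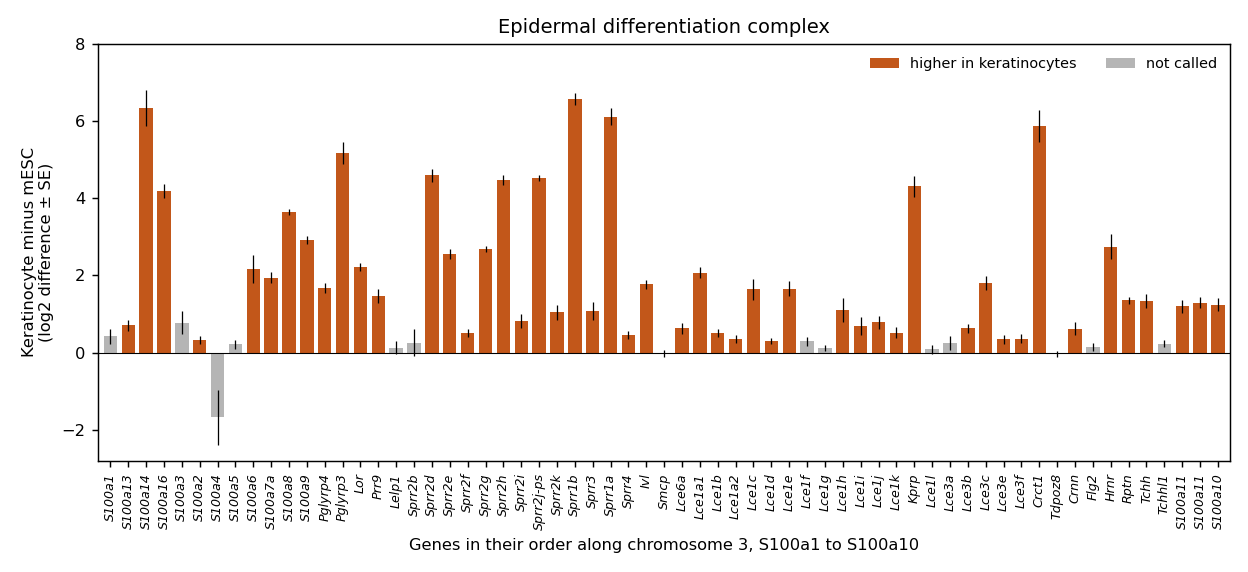
Log2 difference between keratinocytes and mESCs ± SE for the 63 probes of the epidermal differentiation complex, in their order along chromosome 3. The 49 coloured bars were called higher and the 14 grey bars were not called, with S100a4 the one large grey bar below 0.

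The upstream 250 bases of Sprr1a are shown because they hold a pair of AP-1 motifs. The sequence is RefSeq's (GRCm38.p6, chr3:92485882-92486131, minus strand, ending at the base before the start site), with capitals marking matches to AP-1 (TGANTCA), the SOX core (ACAATG) and the CACCC box (CCACCC) on either strand.
Sprr1a: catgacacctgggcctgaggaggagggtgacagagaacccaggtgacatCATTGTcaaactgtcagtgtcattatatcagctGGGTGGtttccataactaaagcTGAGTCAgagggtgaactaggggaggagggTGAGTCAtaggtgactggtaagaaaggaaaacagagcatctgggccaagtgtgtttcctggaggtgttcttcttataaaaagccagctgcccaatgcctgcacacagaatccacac
The AP-1 matches began 146 and 116 bases before the start site, the CACCC box 168 and the SOX core 201 bases before it. Among the upstream windows read for other epidermal genes, that of Sprr1b held an AP-1 match. Those of Krt5, Dsp, Cldn1, Abca12 and Asprv1 held none. The Krt14 window (chr11:100206031-100206280, minus strand) held none either, but it lies inside the gene's RefSeq span (chr11:100203162-100207510). The bases before the outer end of that span were not read. Over promoters of genes called higher by 2-fold or more, 7.81% of 1896 such windows held an AP-1 motif, against 3.17% of 1957 windows of genes called lower and 6.03% of 19116 windows of all genes measured. The CACCC box, which KLF proteins bind, was in 39% of windows of higher genes, 32.5% of lower and 31.3% of all. For the grainyhead core (ACCGGTT) the shares were 1.11%, 1.28% and 1.01%, and for the AP-2 palindrome 19.7%, 19% and 17.1%. These shares describe letters in a fixed window and were not tested.

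Proteases and their inhibitors, which time the shedding of the outer layer, were higher in 20 of 27 measured genes with none lower and a median of 2.01. Spink5, the inhibitor lost in Netherton syndrome, read 5156 and 5012 against 46.9 and 46.9 (6.76 ± 0.093, 108-fold), and in the 14 other arrays of the series it reached at most 63.4. Its target family was led by Klk7 (4082 and 3857 against 113 and 104) and Klk10 (2649 and 3493 against 243 and 212), with Klk6 and Klk8 2.97 ± 0.18 and 2.88 ± 0.21 higher. Serpinb5 (maspin) and Serpinb2 were 6.60 ± 0.57 and 6.28 ± 0.29 higher. The 32 measured lipid barrier genes had 19 higher and 2 lower, with a median of 0.92. Abca12, the transporter that loads lipids into lamellar granules, read 5013 and 4803 against 54.8 and 58.3 (6.44 ± 0.31), Cers3, the synthase of ultra-long ceramides, 3078 and 3914 against 71.7 and 65.1 (5.67 ± 0.31), and Elovl4, which makes the fatty acids for it, 5083 and 5714 against 750.0 and 741 (2.85 ± 0.22). Elovl6, the elongase of common long-chain fatty acids, went the other way with 744 and 958 against 3516 and 3115 (-1.97 ± 0.26), and Cers4 was lower by 1.54 ± 0.38 with its call lost without keratinocyte replicate 2 or mESC replicate 2 (adjusted p = 0.0733 and 0.0678).

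Of 16 desmosome genes 12 were higher and 1 lower, with a median of 2.50. The desmosomal cadherins Dsg3 and Dsc3 stood 7.19 ± 0.36 and 7.11 ± 0.49 apart, Dsg3 reading 6353 and 6347 in keratinocytes against 39.05 and 48.6 in mESCs and Dsc3 6699.6 and 6629.6 against 46.99 and 49.3. Dsg2, the widespread form, read 842 and 767 against 280.4 and 348. Of the plaque proteins, Pkp1 (plakophilin 1) was 5.59 ± 0.41 higher and Dsp (desmoplakin) 4.83 ± 0.45 higher, while Pkp2, the plakophilin of simple epithelia and heart, gave 478 and 529 against 811 and 977 and was lower by 0.82 ± 0.19, a call lost without keratinocyte replicate 1 or mESC replicate 2 (adjusted p = 0.0546 and 0.0586). The higher call of Dsg2 was lost without any one of the 4 arrays (adjusted p from 0.0771 to 0.157). Among 21 hemidesmosome and basement membrane genes 14 were higher and 1 lower, with a median of 1.75. The lower gene was Frem2, a basement membrane protein, whose call was lost without keratinocyte replicate 1 or mESC replicate 2 (adjusted p = 0.0511 and 0.0539). The laminin 332 chains Lama3 and Lamb3 were 4.02 ± 0.28 and 4.17 ± 0.23 higher, and the integrin subunits Itgb6 (1263 and 1446 against 35.04 and 39.8) and Itga3 (3281 and 3859 against 381 and 514) 5.18 ± 0.21 and 3.01 ± 0.39 higher. Itga6, by comparison, was high in both, at 4367 and 4780.5 against 2247 and 2049.6, and differed by 1.09 ± 0.23.

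Tight junction and polarity genes had 19 of 28 higher and 1 lower, with a median of 1.22. Within the claudins, which form the seal, the members differed in direction. Cldn1, required for the epidermal water barrier, read 11270.5 and 9811 against 96.6 and 77.95 (6.92 ± 0.65), and Cldn4 read 10905 and 9126 against 1226 and 1046 (3.14 ± 0.47). Cldn6, known from stem cells and embryonic epithelia, read 330.2 and 382 against 1722 and 1599 and was 2.23 ± 0.40 lower. Cldn2, Cldn5, Cldn9 and Cldn10 were not called.

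Of the epithelial genes shared by both cell types, 19 of 25 were higher in keratinocytes with 1 lower and a median of 2.01. Cdh1 (E-cadherin) read 6949 and 6667 against 3257 and 3230.4, non-overlapping and 1.07 ± 0.24 higher. Epcam read 2338 and 2623 against 1895 and 1388, a difference of 0.61 ± 0.15 whose call was lost without keratinocyte replicate 2 or mESC replicate 2 (0.53 with adjusted p = 0.0693, and 0.39 with adjusted p = 0.0565). The splicing regulators Esrp1 and Esrp2, which fix epithelial isoforms, were 2.63 ± 0.47 and 2.76 ± 0.45 higher, and the small GTPase gene Rab25 read 5628 and 5988 against 359 and 299.9 (4.14 ± 0.49). The simple-epithelium keratins Krt8 and Krt18 read 2585 and 3159 against 934 and 1154 for Krt8 and 3034 and 3276 against 514 and 715 for Krt18, whereas their relative Krt19 read 233 and 239 against 346 and 287, lower by 0.42 ± 0.12 with adjusted p = 0.02 and between 0.0655 and 0.138 without keratinocyte replicate 1, keratinocyte replicate 2 or mESC replicate 1.

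Epidermal transcription factors were higher for 38 of 59 measured genes and lower for 4, with a median of 1.57. Vdr, the vitamin D receptor, read 4134 and 2662 against 151 and 128 (4.58 ± 0.26), Sox9 5252 and 4955 against 228 and 264 (4.38 ± 0.19), and Ehf, an ETS factor of epithelia, 2205 and 1496 against 103 and 81.1 (4.31 ± 0.21). Regulators that drive terminal differentiation downstream of p63 were high as well: Zfp750 read 3917 and 3475 against 339.8 and 248, Ovol1 1408 and 944 against 106 and 91.9 and Grhl1 1811 and 1216 against 122 and 134. These were 3.67 ± 0.42, 3.55 ± 0.34 and 3.54 ± 0.27 apart. Tfap2a, Gata3 and the AP-1 genes Fos, Jun and Fosl2 were 3.90 ± 0.32, 2.85 ± 0.29, 3.90 ± 0.25, 2.69 ± 0.17 and 3.18 ± 0.14 higher. Some factors with known roles in skin had like signals in mESCs. Klf4 gave 926 and 958 in keratinocytes and 931 and 1100.2 in mESCs, a difference of -0.10 ± 0.21 with an interval of -0.59 to 0.38, and Klf5 gave 3051 and 3005 against 4097 and 3120.3, -0.24 ± 0.24 with an interval of -0.80 to 0.32. Grhl2, which maintains E-cadherin in many epithelia, read 601 and 706 against 370.2 and 419.6 (0.72 ± 0.38, adjusted p = 0.178), and Tfap2c 406 and 457 against 596 and 661 (adjusted p = 0.058). Tbx3, a factor of both limb bud and naive pluripotency, was 3.04 ± 0.21 lower (173 and 189 against 1502 and 1471), and Tbx15 and Pou2f3 were 1.89 ± 0.20 and 0.75 ± 0.17 lower.

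**Figure D4:**
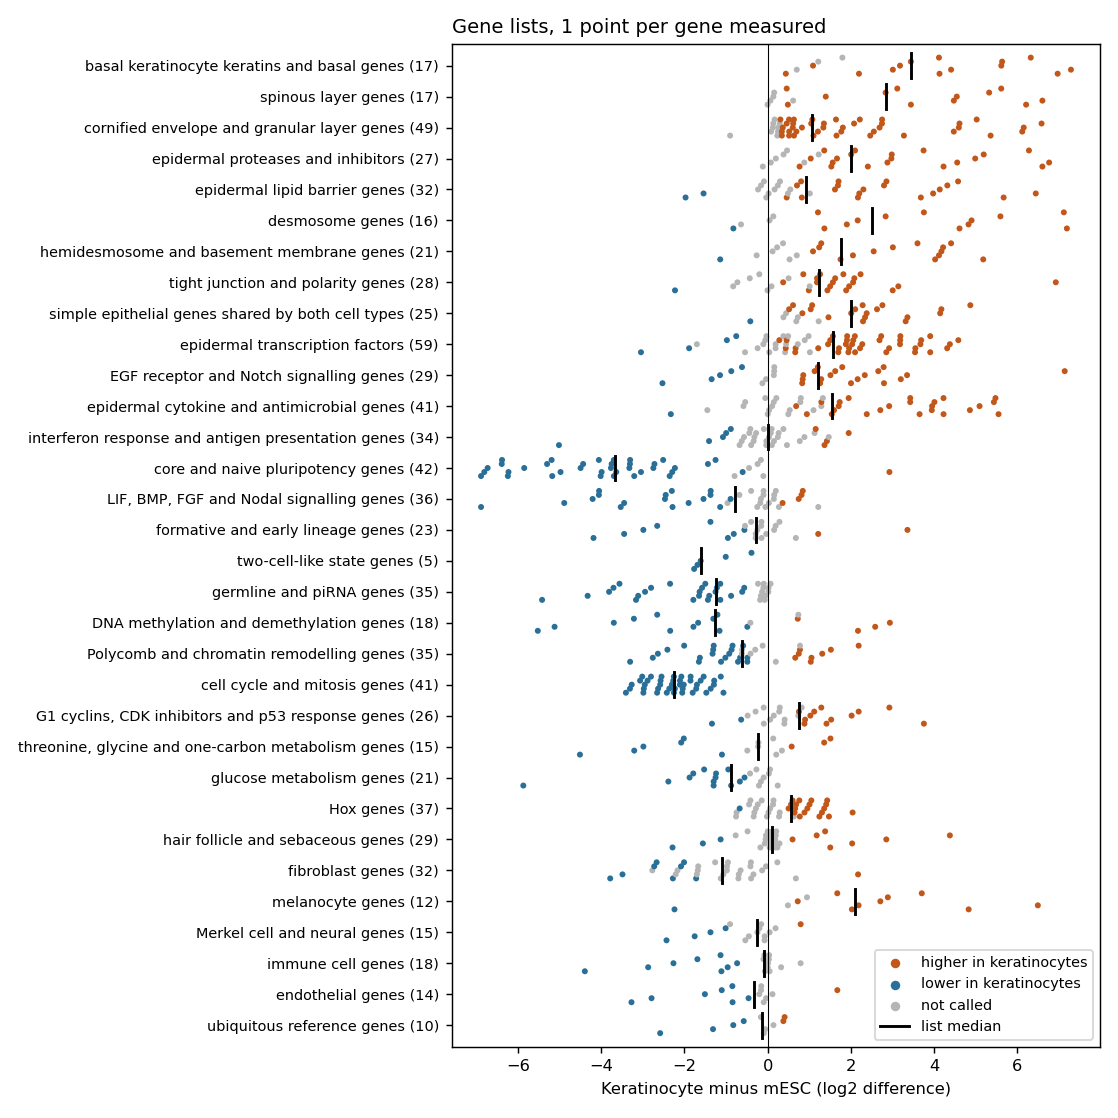
Log2 difference between keratinocytes and mESCs for every measured gene of 32 lists, coloured by call, with a black bar at each list's median and the number of genes in brackets. All 41 cell cycle genes lie below 0, basal genes have the highest median (3.44) and core pluripotency genes the lowest (-3.66).

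Growth factor and Notch genes, which steer basal cells into division or differentiation, had 19 of 29 members higher and 5 lower, with a median of 1.21. These counts rested partly on single arrays: without keratinocyte replicate 1 they were 13 and 2, without mESC replicate 1 they were 14 and 3, and without mESC replicate 2 they were 15 and 3. Epgn (epigen), a ligand of the EGF receptor, read 6322 and 7893 against 46.9 and 53.9 (7.13 ± 0.29, 141-fold), and the receptor gene Egfr itself 2973 and 3064 against 288 and 305 (3.35 ± 0.13). The keratinocyte medium contained EGF. Notch1 and its ligand gene Jag1 read 3001 and 2393 against 552 and 649 for Notch1 and 1623 and 2394 against 285 and 342 for Jag1, and the Notch targets Hes1 and Nrarp were 2.79 ± 0.29 and 3.20 ± 0.30 higher. Rbpj, the DNA-binding partner of Notch, was the other way round at 528 and 672 against 3679.7 and 3205, lower by 2.53 ± 0.17.

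Innate defence genes were higher for 24 of 41 and lower for 1, with a median of 1.54. The β-defensin gene Defb1 read 2189.9 and 1389.8 against 37.96 and 36.7, Lcn2 (lipocalin 2) 3251 and 3273 against 72.4 and 78.6, and Tslp, an epithelial cytokine, 1670.3 and 2067 against 71.2 and 57.7. They were 5.55 ± 0.18, 5.43 ± 0.53 and 4.86 ± 0.46 higher. The alarmin genes S100a8 and S100a9 were 3.65 ± 0.073 and 2.92 ± 0.10 higher with keratinocyte arrays that nearly coincided (645 and 666 for S100a8). For other cytokines the 2 keratinocyte arrays themselves were far apart. Il1a read 990.4 and 2849, Cxcl2 498 and 1999.9 and Cxcl1 309.9 and 1041 on keratinocyte arrays 1 and 2, with 167 and 182 on the mESC arrays for Cxcl1. Il23a read 128 and 481 against 152 and 134, so that 1 keratinocyte array lay below both mESC arrays, and it was not called. Without keratinocyte replicate 2 the difference of Cxcl1 was 0.83 in place of 1.71, and without mESC replicate 1 or 2 it was no longer called (adjusted p = 0.0794 and 0.0601). Ccl2, a monocyte chemoattractant, was the member lower in keratinocytes (125 and 120.2 against 618 and 609, -2.33 ± 0.36).

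Interferon-response genes, in contrast, showed no common direction: 4 of 34 were higher and 5 lower, with a median of 0.001. Both shares were below those of all probes, of which 18.2% were higher and 20.4% lower. Tap1 and Tap2, the peptide transporters of antigen presentation, were 1.95 ± 0.18 and 1.42 ± 0.18 higher. Ifitm1, which marks mESCs and early germ cells, read 203 and 214 against 7102 and 6383 and was 5.01 ± 0.26 lower, with Ifitm2 and Ifitm3 1.07 ± 0.072 and 1.41 ± 0.25 lower. Counts for this list depended on the arrays that set the error, with 8 higher and 12 lower in a fit of the 4 arrays alone. Among all 21789 probes that fit called 4365 higher and 5079 lower.

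MicroRNA hairpins were measured for 17 genes of a list drawn up for these cell types, of which 6 were higher in keratinocytes and none was lower. Their signals stand for hairpin and primary transcript, not for the mature form. The 3 hairpins that differed by 2-fold or more are shown by their mature strands, taken from RefSeq (GRCm38.p6), in 5′ to 3′ direction with the seed (bases 2 to 8), which pairs with targets, in capitals.
miR-203-3p: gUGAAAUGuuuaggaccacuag
miR-205-5p: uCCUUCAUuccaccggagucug
miR-200b-3p: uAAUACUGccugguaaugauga
miR-200c-3p: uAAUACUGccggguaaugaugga
Mir203 (chr12:112130927-112130948 for the strand shown), a repressor of Trp63 in suprabasal cells, read 397 and 169 against 25.3 and 25.4, with the 2 keratinocyte arrays more than 2-fold apart (3.35 ± 0.32). Mir205, of the basal layer (chr1:193507503-193507524), read 159.9 and 132 against 39.8 and 47.95 (1.74 ± 0.14). Mir200b (chr4:156055685-156055706), whose family represses Zeb1 and Zeb2, read 162 and 97.98 against 54.2 and 56.4 (1.19 ± 0.23). miR-200c-3p is printed beside it because the 2 share the seed AAUACUG, yet its hairpin Mir200c read 72.7 and 60.3 against 50.7 and 56.4 and was not called. The mESC-enriched Mir302 cluster gave signals between 24.2 and 29.8 on all 4 arrays, close to the lowest signal of the table, and its 4 measured hairpins were not called.

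The pluripotency genes were largely lower in keratinocytes. Of 42 genes measured 36 were lower in keratinocytes and 1 was higher, with a median of -3.66. Nanog read 6159 and 5349 on the mESC arrays and 70.8 and 66.5 on the keratinocyte arrays (-6.39 ± 0.10, 83.6-fold, adjusted p = 1.46e-08). The reporter transgene of the 1A2 line is a Nanog construct, and its transcript was not told apart from the gene here. Sox2 read 5305 and 3993 against 62.1 and 59.8 and Pou5f1 4947 and 6628 against 73.6 and 64.3, and in none of this core trio did the arrays overlap. Further members set mESCs apart as strongly. Tdgf1 (Cripto), the Nodal co-receptor, read 8279 and 7239 against 66.2 and 64.95 (-6.88 ± 0.21), Dppa5a 8279 and 6478 against 58.9 and 72.8 (-6.80 ± 0.14), and Nr0b1 (DAX1) 5555 and 5664 against 57.5 and 48.9 (-6.72 ± 0.15). The naive-state factors Esrrb, Zfp42 (REX1), Tfcp2l1, Klf2 and Prdm14 were lower by 5.19 ± 0.17, 5.30 ± 0.30, 2.72 ± 0.45, 2.51 ± 0.23 and 2.35 ± 0.17. Fgfbp1, a carrier of FGFs, was the one member higher in keratinocytes, at 979.9 and 837 against 121 and 117. Besides Klf4 and Klf5, the members not called were Thap11, Lin28b and Sox15, a SOX factor that read 605 and 752 against 1479 and 925 (adjusted p = 0.191).

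The 250 bases before the upstream RefSeq start site of Nanog (GRCm38.p6, chr6:122707239-122707488, plus strand) are shown because they hold an octamer core (ATGCAAA) and a SOX core side by side, capitals marking the matches on either strand.
Nanog: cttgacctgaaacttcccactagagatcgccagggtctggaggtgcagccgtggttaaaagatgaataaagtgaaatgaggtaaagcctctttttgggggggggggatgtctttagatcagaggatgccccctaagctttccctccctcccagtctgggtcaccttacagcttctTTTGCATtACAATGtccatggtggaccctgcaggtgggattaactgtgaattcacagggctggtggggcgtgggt
The octamer match began 75 and the SOX match 67 bases before the start site, with 1 base between them. Among the windows read for other pluripotency genes, those of Sox2 and Zfp42 held an octamer core. The Pou5f1 window just before the gene (chr17:35505782-35506031) held neither motif. A second Pou5f1 window, which lies inside the gene (chr17:35508557-35508806), held a SOX core. The windows of Tdgf1, Utf1 and Esrrb held neither. The octamer core was in 3.83% of windows of genes lower by 2-fold or more, in 4.17% of windows of genes higher and in 3.79% of all, and the SOX core in 7%, 7.07% and 8.43%.

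Signalling genes of the stem cell state were lower for 17 of 36 members and higher for 4, with a median of -0.78. Without mESC replicate 1 the count of higher genes was 2. The Nodal axis was covered by Nodal (1075 and 1379 in mESCs against 106 and 118), Lefty1 (2440.2 and 2157 against 78.7 and 76.5) and Lefty2 (723 and 599.6 against 35.3 and 44.9), ligand and feedback inhibitors, lower by 3.45 ± 0.16, 4.88 ± 0.14 and 4.05 ± 0.21. Fgf4, the autocrine FGF of mESCs, read 2313 and 2645 against 153 and 146, and the FGF feedback genes Spry4 and Spry2 were lower by 4.20 ± 0.22 and 2.47 ± 0.27. Lifr, the receptor of the self-renewal cytokine LIF, read 808 and 1039 against 93.9 and 67.3 (-3.53 ± 0.33), while its partner Il6st and the effector Stat3 differed by 0.20 ± 0.39 and 0.27 ± 0.16 and were not called. Bmpr1a, Smad1 and Jak1 were among the members higher in keratinocytes, with Bmpr1a at 1965 and 1781 against 1079 and 1154.

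Genes of states next to naive pluripotency were measured as well. Of 23 formative and early lineage genes 8 were lower and 2 higher, with a median of -0.29. The higher genes were Krt7 and Elf5, and the call of Elf5 was lost without keratinocyte replicate 1 or either mESC replicate (adjusted p from 0.117 to 0.204). Otx2 and Zic2, active when cells leave the naive state, read 628 and 533 against 53.5 and 52.7 for Otx2 and 1373 and 1002 against 61.98 and 67.4 for Zic2, lower by 3.45 ± 0.14 and 4.18 ± 0.17. Lineage markers such as Sox17, Sox7, Gata4, Foxa2, Cdx2 and Mixl1 were not called, and their log2 differences lay between -0.29 and 0.28. Of 18 genes listed for the 2-cell-like state 5 were measured, and these were lower with a median of -1.61, Zfp352 reading 210.5 and 155 against 57.8 and 60.9. With the iPSC clones added to the mESCs 4 were lower and the median was -0.815, and none of the 5 was left without the dimmest 30% of probes. Germline and piRNA genes, which DNA methylation silences in somatic cells, were lower for 24 of 35 and higher for none, with a median of -1.25. Tdrd12 read 2229.7 and 1612 against 44.7 and 43.98 (-5.42 ± 0.16), Mael (maelstrom) 763 and 569.7 against 33.3 and 32.6 (-4.32 ± 0.14), and Ddx4 (the VASA helicase) 405 and 352 against 42.9 and 41.6 (-3.16 ± 0.11).

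The enzymes of DNA methylation moved in both directions, with 12 of 18 lower, 4 higher and a median of -1.26. Dnmt3l, a cofactor of de novo methylation, read 1931 and 2230.5 in mESCs against 59.6 and 60.1 (-5.12 ± 0.18), and Dnmt3b 867 and 1109.7 against 149 and 164 (-2.65 ± 0.20). Uhrf1 and Dnmt1, which copy methylation after replication, were lower by 2.34 ± 0.34 and 1.30 ± 0.21. The 3 TET dioxygenases, which oxidise methylcytosine, were split. Tet1 read 6443 and 6142 against 139 and 135 and was 5.52 ± 0.45 lower, whereas Tet3 read 162 and 184 against 1084 and 986 and was 2.58 ± 0.33 higher in keratinocytes. Tet2 was lower by 1.78 ± 0.41, with adjusted p = 0.0519 without keratinocyte replicate 2 and 0.053 without mESC replicate 1. Among 35 Polycomb and remodelling genes 20 were lower and 8 higher, with a median of -0.62. Jarid2 and Mtf2, accessory subunits that bring PRC2 to its targets, read 5319 and 5028 against 902 and 767 for Jarid2 and 4256 and 4120.1 against 617 and 620.4 for Mtf2, lower by 2.64 ± 0.30 and 2.76 ± 0.16, and the core subunits Ezh2 and Eed were lower by 1.63 ± 0.18 and 1.65 ± 0.084. In PRC1, Cbx7 and Phc1 were lower by 2.00 ± 0.36 and 3.30 ± 0.32 and Cbx8 and Bmi1 were 1.31 ± 0.16 and 1.04 ± 0.17 higher. Of the alternative BAF ATPases, Smarca2 (BRM) read 719 and 665 in keratinocytes against 169 and 137 and was 2.19 ± 0.23 higher. Smarca4 (BRG1) read 1814 and 1846 against 2434 and 2703, a lower call that was lost without any one of the 4 arrays (adjusted p from 0.0836 to 0.19).

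Every one of the 41 measured cell cycle and mitosis genes was lower in keratinocytes, each by 2-fold or more, and their median was -2.25. Kif20a, a mitotic kinesin, read 3032 and 2973 in mESCs against 245 and 328 (-3.40 ± 0.20), Bub1b, a spindle checkpoint kinase, 2172 and 2109 against 212 and 234 (-3.27 ± 0.25), and the replicative helicase gene Mcm6 2140.4 and 2597 against 258 and 349 (-2.97 ± 0.16). Ccne1 (cyclin E1), held high through the cycle in mESCs, read 5116 and 4981 against 654 and 715 (-2.88 ± 0.10). The 2 keratinocyte cultures were not alike here. Keratinocyte array 2 was above array 1 for 40 of the 41 genes, with a median of 0.47 between them, against 21 of 41 and a median of 0.012 between the mESC arrays. Ccna2, for instance, read 876 and 1665 against 5046 and 4962, still without overlap. In these bulk samples fewer cells of a type and less RNA per cell cannot be told apart. G1 regulators and p53 targets had 12 of 26 higher and 2 lower, with a median of 0.745. Perp, a p63 and p53 target in desmosomes, was 3.75 ± 0.30 higher and Plk2 2.92 ± 0.10 higher, while Ccnd3 (cyclin D3) read 1204 and 1227 against 3429 and 2751 and was 1.34 ± 0.12 lower. Ccnd1 and Cdkn2a were not called.

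Glucose metabolism genes had 13 of 21 lower and none higher, with a median of -0.88. Slc2a3 (GLUT3), a high-affinity glucose transporter, read 7806 and 8314 in mESCs against 148 and 129 (-5.87 ± 0.14, 58.4-fold), while Slc2a1 (GLUT1) gave 8972 and 8854 against 7608 and 7187 and was not called (-0.27 ± 0.17, interval -0.67 to 0.13). Pdk1, a kinase that restrains pyruvate entry into mitochondria, was lower by 2.38 ± 0.26. Threonine, glycine and one-carbon genes had 6 of 15 lower and 3 higher, with a median of -0.23. Gldc and Amt, subunits of the glycine cleavage system, read 1919.6 and 2308 against 95.8 and 89.4 for Gldc and 1150.1 and 1368 against 153 and 121 for Amt, lower by 4.51 ± 0.22 and 3.20 ± 0.19. Phgdh and Psph, the first and last enzymes of serine synthesis, were 1.36 ± 0.14 and 1.51 ± 0.22 higher in keratinocytes.

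Of 37 Hox genes measured 19 were higher in keratinocytes and 1 was lower, with a median of 0.56. Genes of paralogue groups 1 to 9 were higher in 18 of 25 cases, with a median of 0.76, and those of groups 10 to 13, which pattern the posterior body and limbs, in 1 of 12 with a median of -0.33. Hoxb9 read 885 and 1021 against 225 and 237 (2.04 ± 0.26), Hoxa9 316 and 335 against 122 and 123 and Hoxc6 353 and 318 against 127 and 144. That one gene, Hoxc13, lost its call without either keratinocyte replicate or mESC replicate 2 (adjusted p from 0.105 to 0.286), and without mESC replicate 2 the count of lower Hox genes was 2. Counted by symbol, which can include transcripts outside these 37 genes, 7 of 9 Hoxb entries and 1 of 10 Hoxd entries were higher. The pups' limbs had been removed before the skin was taken, and the part of this in the Hox values was not tested. The hair follicle and sebaceous list had 7 of 29 genes higher and 3 lower, with a median of 0.11. Of all probes, 18.2% were higher and 20.4% lower, so the share of higher genes in this list was near that of all probes. Its higher members were largely the factors already counted above, Sox9, Gata3 and Msx2 among them, with Lhx2 at 366 and 332 against 124 and 144. Lgr5 and Shh were not called, and Lgr6, a stem cell marker of the upper follicle, read 111 and 119 against 279 and 226 and was 1.13 ± 0.23 lower.

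Markers of other cells that the cultures could hold were listed in the same way. Melanocyte genes were higher in keratinocytes for 9 of 12 members, lower for 1, and had a median of 2.10. The melanin enzymes Tyrp1 and Dct were 6.49 ± 0.16 and 4.83 ± 0.15 higher, Tyrp1 reading 5595 and 4161 on the keratinocyte arrays against 50.1 and 57.4 on the mESC arrays and Dct 1950.4 and 1347 against 57.5 and 56.7. On the other 14 arrays Tyrp1 reached at most 67.1. Pmel, which forms melanosome fibrils, Gpnmb, and the transporter gene Slc45a2 were 2.89 ± 0.14, 3.70 ± 0.35 and 2.71 ± 0.077 higher, and Tyr (tyrosinase) read 205 and 144 against 39.7 and 36.04. Keratinocyte array 1 was above array 2 for 11 of the 12 genes, and the summed signal of the list lay between 10539 and 14627 on the keratinocyte arrays and between 2419 and 2462 on the mESC arrays. Kit, the member lower in keratinocytes, read 239.9 and 199 against 974 and 1092. The share of melanocytes in the cultures, and their part in the other differences, was not tested.

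Of 32 measured fibroblast genes 8 were lower in keratinocytes, a share near the 20.4% of all probes, and 1 was higher, with a median of -1.095. Of the 32 differences 29 lay below 0. In a fit of the 4 arrays alone 5079 of all 21789 probes were lower, and of the 32 fibroblast genes 25 were. Without keratinocyte replicate 2, or without mESC replicate 1, the count was 5. Prrx1 and Cdh11, mesenchymal genes, were lower by 3.49 ± 0.59 and 3.78 ± 0.80. Prrx1 read 973 and 859 on the mESC arrays against 94.97 and 70.1 on the keratinocyte arrays, and Cdh11 1274 and 1095 against 89.7 and 82.4. Vim (vimentin) and Sparc were lower by 2.01 ± 0.25 and 1.72 ± 0.29. Thy1 read 756 and 614 against 140.1 and 141 and Col1a1 827 and 1141 against 215 and 245, with the call lost for Thy1 without mESC replicate 1 or either keratinocyte replicate (adjusted p from 0.0537 to 0.0708) and for Col1a1 without any of the 4 arrays (0.0959 to 0.17). On the 4 arrays of iPSC clones Prrx1 lay between 1241 and 1815, above its mESC signals. The summed signal of the list was from 38412 to 38413 on the mESC arrays, from 17555 to 19189 on the keratinocyte arrays and from 47106 to 58972 on the iPSC arrays. Of other defining fibroblast markers, Lum, Dcn and Pdgfra were low on all 4 arrays and none of them was called. Lum read 38.9 and 35.1 in mESCs against 41.8 and 45.2 in keratinocytes. Dcn read 130.1 and 111 against 85.6 and 97.2, and Pdgfra 87.1 and 108 against 168 and 143. Col1a2, by contrast, lay between 425.8 and 664.5 on the mESC arrays and between 145 and 193.4 on the keratinocyte arrays. Snai2 (SLUG), which basal keratinocytes also use, was the gene higher in keratinocytes (2.17 ± 0.70), a call lost without any of the 4 arrays (adjusted p from 0.0901 to 0.167). Whether feeder cells were present in the mESC cultures is not given in the sources used here, and their part in the result was not tested.

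Immune cell genes were lower in keratinocytes for 8 of 18 and higher for none, with a median of -0.09. Laptm5 read 2288 and 2020.4 in mESCs against 111 and 95.1 (-4.39 ± 0.32). It was not particular to the mESC arrays. Laptm5 lay between 1738.6 and 2085.4 on the iPSC arrays and between 723.6 and 2057.9 on those of the sorted mCherry+ populations. Cd74 read 595 and 376 against 67.7 and 61.9 (-2.87 ± 0.19), and the pan-leukocyte gene Ptprc 103 and 105 against 56.0 and 50.7 (-0.96 ± 0.12). The Langerhans cell gene Cd207 reached 59.7 in keratinocytes and 55.3 in mESCs and was not called. The summed signal was from 5171 to 5653 on the mESC arrays and from 2589 to 3049 on the keratinocyte arrays. Endothelial genes had 7 of 14 lower and 1 higher, with a median of -0.33, Pecam1 (CD31), which mESCs share, at 774 and 762 against 80.2 and 79.02, Kdr (the VEGF receptor 2) higher at 319 and 238 against 82.7 and 90.4, and Cdh5 (VE-cadherin) at 91.01 and 88.9 against 92.7 and 91.8. Merkel cell and neural genes had 4 of 15 lower, near the share of all probes, and 1 higher, with a median of -0.25, and the Merkel cell genes Krt20 and Atoh1 were not called. The higher gene, Map2 of neurons, lost its call without keratinocyte replicate 1 or mESC replicate 2 (adjusted p = 0.121 and 0.119). Of 10 ubiquitous reference genes 2 were higher and 4 lower, with a median of -0.13, and without keratinocyte replicate 1 or mESC replicate 1 the count of higher genes was 1. Actb read 13655 and 14223 against 12551 and 12747 and Ppia 8691 and 9258 against 9015 and 9693, neither called, but Tfrc, the transferrin receptor of dividing cells, read 224 and 344 against 1603 and 1721 and Tbp 753 and 729.8 against 2162 and 1566.

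The 2 keratinocyte arrays differed most in sex-linked transcripts. Xist, the RNA of the inactive X chromosome, read 4077 on array 1 and 46.6 on array 2. On arrays 1 and 2 the Y-linked gene Eif2s3y read 38.1 and 692, Uty 35.9 and 399.8 and Kdm5d 51.6 and 352, low on array 1 and high on array 2 in each case. Array 1 thus read as female and array 2 as male, so the 2 arrays did not hold material of the same pups. The part of sex in the other differences between these 2 arrays was not tested. On the mESC arrays Eif2s3y read 1331 and 991 and Xist 101 and 88.6. None of these 4 genes was called between the cell types, and of the 6 sex-linked genes measured 1 (Zfy1, 28.3 and 34.4 against 126 and 91.6) was lower and none was higher, with a median of -0.88. These counts rested on which keratinocyte array was used: without keratinocyte replicate 1 they were 4 lower and 1 higher, and without keratinocyte replicate 2 they were 3 lower and 1 higher. Of the 68 probes 2-fold or more apart between the keratinocyte arrays, 46 were higher on array 1 and 22 on array 2. Array 1 was higher for Zbtb16 (1360 and 460), Glul (1239 and 419), Fbxo32 (1121 and 365), Klhl24 (1475 and 611) and Pdk4 (184 and 77.3). It was also higher for Hrnr (hornerin, 892 and 412) and Cldn23 (423 and 195), both of the outer epidermis. Array 2 was higher for the cytokine genes above, for Ereg (271 and 615), a ligand of the EGF receptor, and for the histone genes H4c6 (693 and 1389) and H1f1 (292 and 608). With 1 array on each side these differences have no test. Of the 22 probes that far apart between the mESC arrays, Scarna17 (619 and 2123), Snora44 (233 and 686), Rny3 (1767 and 4434) and Rmrp (2793 and 6902) read small noncoding RNAs.

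**Figure D5:**
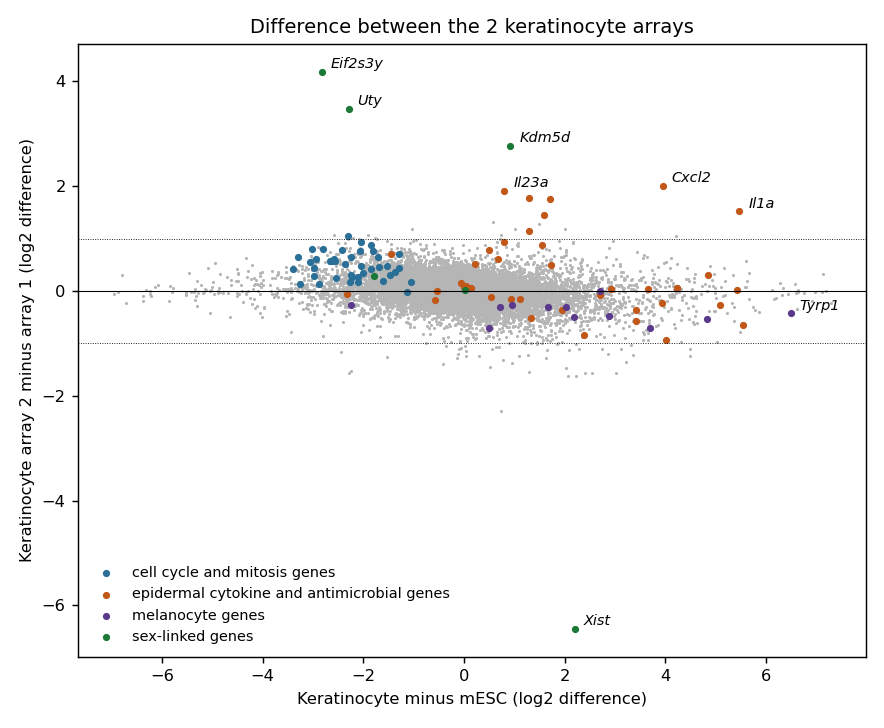
Difference between keratinocyte arrays 2 and 1 (vertical axis, log2) against the difference between keratinocytes and mESCs (horizontal axis, log2) for each single-symbol probe, with dotted lines at 2-fold. Xist and the Y-linked genes lie far from 0 on the vertical axis, 40 of the 41 cell cycle genes lie above 0, and Cxcl2, Il1a and Il23a lie above the upper dotted line.

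Beyond the lists, the 12 largest differences each way named further genes. Higher in keratinocytes were Cpa4, a carboxypeptidase (5341 and 5387 against 51.1 and 56.4, 6.64 ± 0.17), Dynap (8720.2 and 8578 against 86.0 and 87.95, 6.64 ± 0.26) and Trim29 (10399 and 8155 against 85.6 and 102, 6.62 ± 0.34). On the other 14 arrays Cpa4 reached at most 95.1, and Trim29 at most 1456. Lower were the zinc finger genes Zfp980 (3594 and 2586 in mESCs against 25.2 and 24.1, -6.95 ± 0.16) and Zfp640 (2196 and 1703 against 24.03 and 24.4, -6.32 ± 0.15), both with keratinocyte signals near the bottom of the range. Apela, which encodes the secreted peptide ELABELA of mESCs, read 2499 and 2128 against 31.6 and 33.4 (-6.15 ± 0.16), Utf1 8961 and 6559 against 106 and 99.1 (-6.22 ± 0.17) and the imprinted gene Peg10 5240.3 and 5038 against 72.7 and 78.8 (-6.08 ± 0.19). The lowest Peg10 signal on the other 14 arrays was 1087, so that among the 18 arrays the low signals were those of the keratinocytes.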

How the data were processed

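RNA of 18 cultures or sorted populations was hybridised to Mouse Gene 1.0 ST arrays, and the authors normalized the probe intensities by RMA in GeneSpring. The deposited table holds 28853 probe sets as linear signal intensity. It was put on the log2 scale, and the 21789 probes with 1 symbol in the platform annotation (19938 genes) were kept, leaving out 1621 with several and 5443 with none. The depth of an array is not defined, and the number of arrays limits the precision. A linear model of 12 groups over all 18 arrays was fitted with limma 3.58.1 in R 4.3.3 (6 residual and 2.3 prior degrees of freedom), and keratinocytes were compared with mESCs, with Benjamini-Hochberg adjustment over all single-symbol probes. Named genes are the 12 largest differences each way, the 3 largest each way in each of 34 gene lists, the markers and other list members with their values. The compared groups and the lists were chosen with earlier results of these data known. The code was tested on simulated data. Only the second array of a cell type carries a number in its title, and nothing in the labels pairs equal numbers across groups. Alternatives covered normalization, dim probes, the arrays fitted, left-out arrays and the methods' t-test.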

Additional observations from a re-analysis of the deposited data

How the results depend on the processing

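Calls between keratinocytes and mESCs stayed within 1.5 times of 3969 higher and 4442 lower under every limma alternative, and the methods' t-test with Benjamini-Hochberg adjustment was the exception, with 1026 higher and 1038 lower, 756 and 755 by 2-fold or more, and 134 and 103 genes of the lists. That test uses the 4 arrays alone, and at an unadjusted p under 0.05 it called 3886 higher and 4290 lower. Leaving out 1 array gave 2992 to 3265 higher and 3342 to 3739 lower calls. With the replicate number as a block the counts were 3780 and 4324, and 178 of 181 named genes kept direction and side of the threshold while 3 lost their call. The deviations of same-numbered arrays correlated at 0.0158, and whether equal numbers share anything is not given in the labels. Centring on the median moved the share of higher calls to 57%. Genes that changed sign were not called: Cd207 (-0.097 without keratinocyte replicate 2, -0.018 without mESC replicate 1, up to 0.158 without keratinocyte replicate 1), Cdh5 (0.019 with a second quantile normalization, 0.068 median-centred, 0.124 with iPSC clones added to mESCs), Col3a1 (0.065 median-centred, 0.091 without keratinocyte replicate 1, 0.241 without mESC replicate 2, down to -0.318 without mESC replicate 1) and Lum (-0.129 with iPSC clones added). The causes were not tested. Of 828 list genes, 87 that were called changed when an array was left out. Each lost its call, or its difference changed sign or changed by more than 1.5 times. Gained calls were not counted here. Without the dimmest 30% of probes, 256 genes of the lists were higher in place of 312, since fewer genes were tested.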
